A study of Mus musculus with 6 samples.

Results

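The genes described here are 47 regulators of pre-mRNA splicing and their kinases, taken by gene symbol from the 35415 genes of the deposited count and FPKM tables. They comprise 11 SR proteins, 2 Tra2 proteins, 4 CLK kinases, the 2 SRPK kinases with Prpf4b, 5 SR-related matrix and speckle proteins, 6 RBM and LUC7-like proteins, 2 DEAD-box helicases, 7 hnRNPs, 2 FET proteins, 2 DBHS proteins and 3 Rbfox proteins. All 47 had enough counts to be tested, among 17255 genes tested in all. The genes were chosen by family and with the fold changes and calls of the olanzapine comparison in these libraries already known. The differences between the groups in these 47 genes are therefore given as a description, without p-values, beside the share of all genes that passed the same threshold.

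Lateral septum (LS) tissue came from wild-type female C57BL/6 mice that arrived at about 8 weeks of age and, after 1 week of acclimation, were fed for 12 weeks either maintenance chow (control group) or the same feed with olanzapine at 50 mg per kg (olanzapine group). Each library was made from the pooled tissue of 3 mice, and each group had 3 such pools, so n = 3 pools per group throughout, and no spread between individual animals can be given. The counts on genes summed to between 38208153 and 39868872 per pool. The transcripts of 7 markers of septal and inhibitory neurons were detected in every pool, with summed levels of 353.0 to 451.2 FPKM in the control pools and 282.6 to 387.7 FPKM in the olanzapine pools, and 0 of the 7 passed an adjusted p of 0.05 in edgeR, while 4 were lower at an unadjusted p under 0.05, against 8.4% of all genes tested. Markers of striatal neurons, 8 in all, summed to 516.9 to 927.1 FPKM in the control pools and 544.2 to 1129 FPKM in the olanzapine pools. In bulk tissue, fewer cells of a type and less RNA per cell cannot be told apart.

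SR proteins bind exons through RNA-recognition domains and recruit the splicing machinery through tails rich in arginine and serine. Those tails are phosphorylated by SRPK kinases, mainly in the cytoplasm, and by CLK kinases in the nucleus, which moves SR proteins between nuclear speckles and sites of transcription. hnRNPs often oppose them, and Rbfox proteins set neuronal splicing patterns. Many of these genes limit their own mRNA by splicing in an exon with a premature stop or by keeping an intron, and the resulting transcripts are held in the nucleus or removed by nonsense-mediated decay.

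The promoters of 2 pairs of paralogues are shown because the members of each pair differed in their response. The windows run from 250 bases before to 50 bases after the RefSeq start site on GRCm38.p6, and capitals mark the core of the cAMP response element (CRE), TGACG on either strand. The Clk4 window is chr11:51262864-51263163 on the plus strand, Clk3 is chr9:57765065-57765364 on the minus strand, Tra2a is chr6:49264003-49264302 on the minus strand and Tra2b is chr16:22265956-22266255 on the minus strand.
Clk4: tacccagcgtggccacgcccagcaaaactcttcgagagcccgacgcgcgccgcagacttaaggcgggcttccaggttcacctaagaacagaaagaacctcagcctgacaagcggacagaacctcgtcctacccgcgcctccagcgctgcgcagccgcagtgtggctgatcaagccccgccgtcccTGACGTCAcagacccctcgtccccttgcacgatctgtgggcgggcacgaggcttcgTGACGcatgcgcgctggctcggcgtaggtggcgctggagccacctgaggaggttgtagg
Clk3: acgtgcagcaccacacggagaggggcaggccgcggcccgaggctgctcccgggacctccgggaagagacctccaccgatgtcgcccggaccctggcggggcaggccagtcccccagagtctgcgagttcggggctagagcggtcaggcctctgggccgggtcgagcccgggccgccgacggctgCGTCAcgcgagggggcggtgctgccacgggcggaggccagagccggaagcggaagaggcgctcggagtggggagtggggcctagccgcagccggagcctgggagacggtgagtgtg
Tra2a: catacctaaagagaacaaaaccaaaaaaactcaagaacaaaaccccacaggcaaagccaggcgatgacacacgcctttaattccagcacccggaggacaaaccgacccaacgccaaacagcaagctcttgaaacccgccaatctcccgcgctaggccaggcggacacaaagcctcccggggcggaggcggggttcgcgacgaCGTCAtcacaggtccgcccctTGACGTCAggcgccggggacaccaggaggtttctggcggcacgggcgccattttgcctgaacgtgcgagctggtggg
Tra2b: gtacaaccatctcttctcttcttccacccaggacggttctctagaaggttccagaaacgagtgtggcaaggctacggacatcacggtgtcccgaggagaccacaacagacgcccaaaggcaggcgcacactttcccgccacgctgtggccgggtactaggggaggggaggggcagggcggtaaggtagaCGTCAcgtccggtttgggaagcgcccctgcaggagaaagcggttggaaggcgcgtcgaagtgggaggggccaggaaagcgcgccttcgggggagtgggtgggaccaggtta

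The full element TGACGTCA, which is its own reverse complement and contains the core on both strands, began 65 bases before the start of Clk4 and 27 bases before that of Tra2a. Among the 43 genes with a window in the RefSeq table it was found in these 2 alone, that is in 4.65% of them, against 1.88% of 27025 promoters. The core was found in 21 of the 43 windows (48.8%), including those of Clk3, Clk2 and Tra2b, against 21.0% of all promoters. Of the 13 genes with a window that rose in the comparison below, 5 held the core, and of the other 30, 16 did. Other motifs were counted in the same 43 windows. The ETS factor motif was in 18.6% (9.12% of all promoters), the CCAAT box in 46.5% (37.9%) and the TATA box in 6.98% (14.2%). The heat shock element was in 4.65% (0.529%) and the NRF1 motif in 2.33% (0.977%). Clk1, Pnisr, Luc7l and Rbfox2 had no entry in the table. A match is a description of letters in this window, and the binding of a factor was not measured.

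Of the 47 genes, 15 were higher in the olanzapine group at an adjusted p under 0.05 from edgeR's quasi-likelihood F test over all 17255 genes, against 1.83% of all genes tested. None was lower, against 0.493% of all genes, so that 15 genes passed in either direction, against 2.32%. At an unadjusted p under 0.05, 28 were higher, against 9.19% of all genes, and 0 were lower, against 8.4%. DESeq2 called 20 higher, against 3.84% of all genes, and none lower, against 492 of all 17255 genes. The 20 were the 15 called in edgeR with Srsf7, Srpk1, Prpf4b, Srrm2 and Ewsr1. The 15 genes were Clk4, Clk1, Srsf11, Srsf5, Srsf6, Tra2a, Pnisr, Srrm1, Luc7l3, Luc7l2, Rbm39, Rbm5, Rbm25, Hnrnpdl and Sfpq. Their log2 fold changes lay between 0.37 and 0.89, so none of them passed the limit of a 2-fold change, which 0.95% of all genes passed upwards and 0.058% downwards with the same adjusted p. The median log2 fold change was 0.25 over the 47 genes and 0.004 over all genes tested, and 41 of the 47 values were above 0, against 50.7% of all genes. The normalized counts of the 3 olanzapine pools all lay above those of the 3 control pools in 33 of the 47 genes, against 13.3% of all genes, and below them in 0, against 11% of all genes.

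Clk4, Clk1, Srsf11, Pnisr, Srrm1 and Luc7l3 passed in each of the 6 fits that left out 1 pool. The other 9 were lost without control pool 1, control pool 2, control pool 3 or olanzapine pool 3, each of which left 6 calls, and 8 calls remained without olanzapine pool 2. Without olanzapine pool 1 there were 17 calls, among them all 15. Calls over all genes fell in the same fits, from 1.83% higher with all pools to between 0.706% and 0.762% in the fits that left 6 calls and to 0.894% without olanzapine pool 2, and were at 1.76% without olanzapine pool 1.

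**Figure D1:**
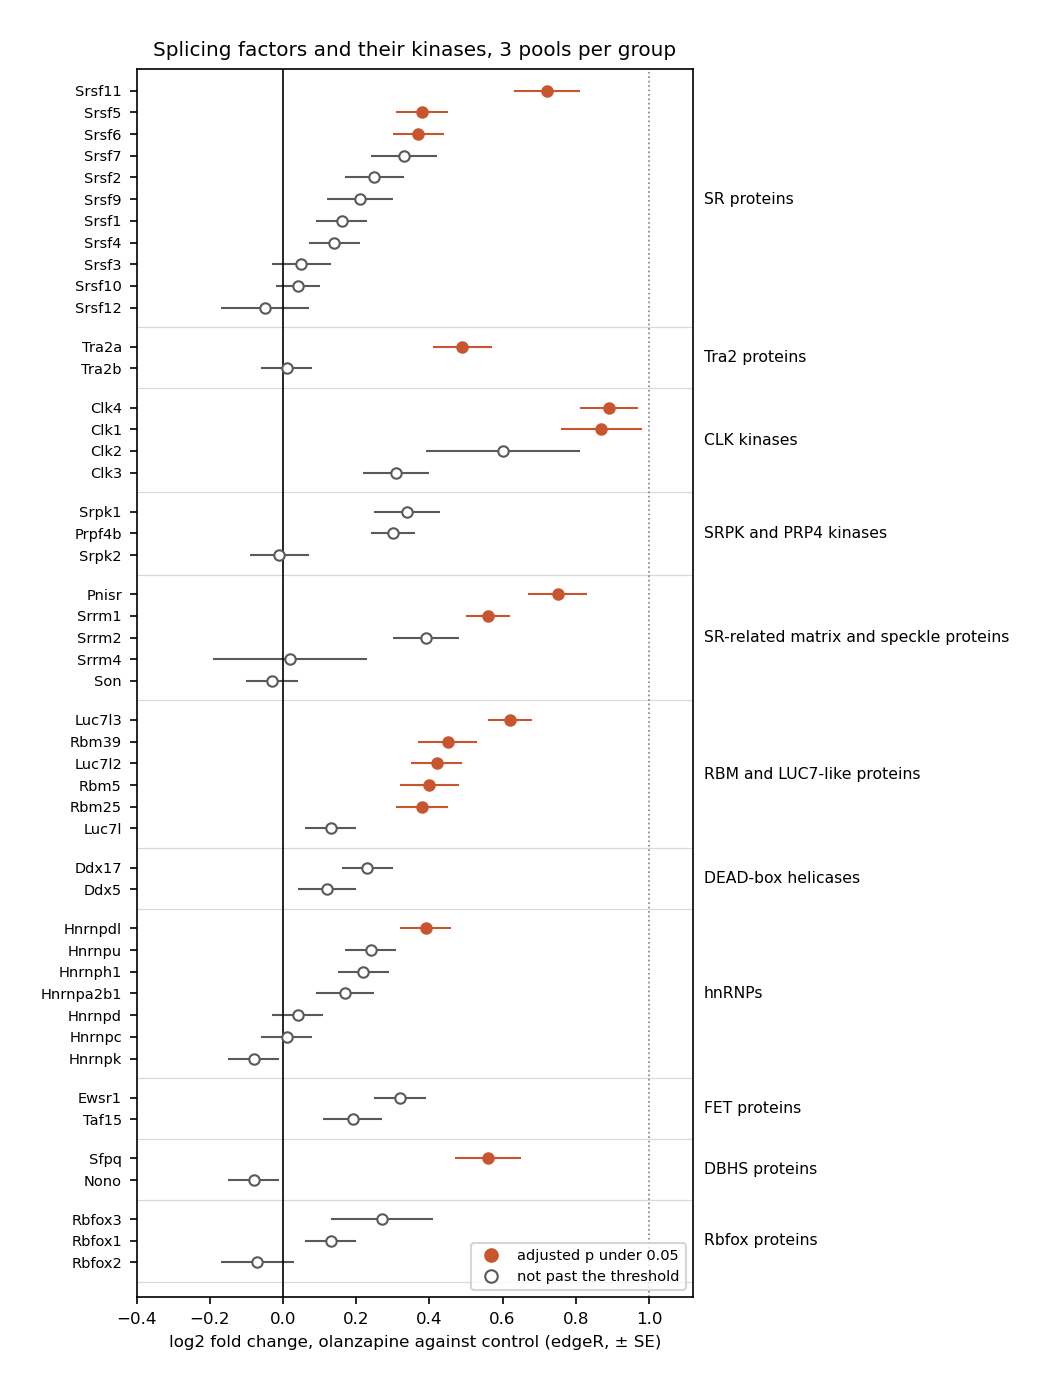
Log2 fold change of each of the 47 genes between the olanzapine and control groups (x axis, edgeR fit, bars are the standard error, 3 pools per group), ordered within subfamilies. Filled points mark the 15 genes past an adjusted p of 0.05, all to the right of 0, and the dotted line at 1 marks a 2-fold change, which no gene reached.

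The CLK kinases phosphorylate the arginine-serine tails of SR proteins in the nucleus, and 2 of the 4, Clk4 and Clk1, had the highest fold changes of the 47 genes. Clk1 (chr1:58410189-58424066, minus strand) had 28.1, 37.1 and 34.0 FPKM in control pools 1 to 3 and 53.6, 66.3 and 63.8 FPKM in olanzapine pools 1 to 3. The highest control pool lay well below the lowest olanzapine pool, and the log2 fold change was 0.87 (SE, the standard error, 0.11), a 1.82-fold rise. Clk4 (chr11:51261730-51281766, plus strand) had 6.00, 6.84 and 6.88 FPKM in the control pools and 11.7, 12.7 and 12.6 FPKM in the olanzapine pools. Its 3 values in each group were close to each other, and its log2 fold change was 0.89 (SE 0.08.)

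The other 2 CLK kinases did not pass the threshold. Clk3 had 9.97, 10.7 and 10.9 FPKM in the control pools and 14.7, 12.8 and 12.3 FPKM in the olanzapine pools, without overlap, and a log2 fold change of 0.31 (SE 0.09.) Clk2 was the lowest of the 47 genes per length, at 1.30, 1.57 and 1.02 FPKM in the control pools and 1.83, 2.09 and 2.08 FPKM in the olanzapine pools. Its log2 fold change of 0.60 had an SE of 0.21, and its control pools had a coefficient of variation of 21.5%, the highest of the 47 genes. Exons of Clk3 overlap those of the antisense gene Edc3 over 15.2% of their bases, and no strand setting is given for the counting, which leaves its counts uncertain.

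Ratios of FPKM between paralogues in the same pool do not depend on library scaling. The ratio of Clk4 to Clk3 was 0.602, 0.639 and 0.630 in control tissue and 0.797, 0.993 and 1.03 after olanzapine, so that Clk4 moved from below Clk3 to about its level. The ratio of Clk1 to Clk4 was 5.01 ± 0.377 (SD, n = 3 pools) in control tissue and 4.95 ± 0.328 (SD, n = 3) after olanzapine and overlapped between the groups. The ratios were chosen after the fold changes had been seen and are a description.

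**Figure D2:**
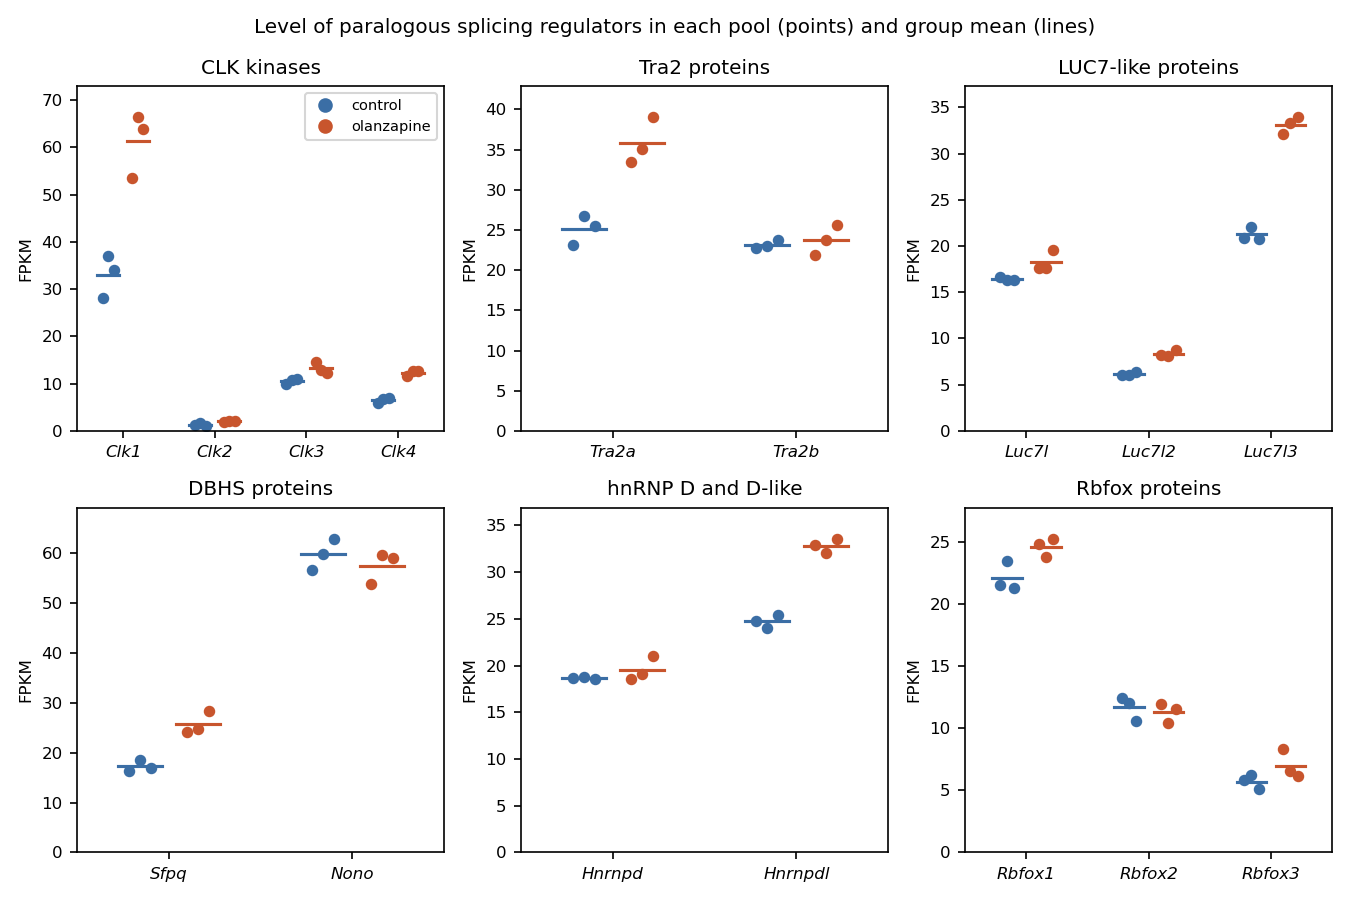
FPKM (y axis, linear, from 0) of paralogous splicing regulators in each control pool (blue) and olanzapine pool (orange), with lines at the group means of 3 pools. Clk1, Clk4, Tra2a, Luc7l3, Luc7l2, Sfpq and Hnrnpdl, which passed, show no overlap between the groups. Clk2, Clk3, Luc7l and Rbfox1, which did not pass, show none either, while Tra2b, Nono, Hnrnpd, Rbfox2 and Rbfox3 overlap. Of all genes with a mean FPKM of at least 0.1, 14.9% lay higher without overlap.

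The kinases of the cytoplasmic step did not pass the threshold in edgeR, and Srpk1 passed with DESeq2 alone. Srpk1 had between 10.3 and 11.7 FPKM in the control pools and between 13.2 and 14.7 FPKM in the olanzapine pools, with a log2 fold change of 0.34. Srpk2, which was the higher of the pair in control tissue at 21.2 ± 1.21 FPKM (SD, n = 3 pools), had 22.6, 20.6 and 20.5 FPKM there and 22.5, 20.4 and 21.3 FPKM in the olanzapine pools, so the groups overlapped. Prpf4b, a kinase that acts on the assembled spliceosome, was the lowest of these 3 at 8.58, 8.51 and 8.27 FPKM in the control pools and 10.1, 11.1 and 10.6 FPKM in the olanzapine pools. Its groups did not overlap, and its log2 fold change was 0.30 (SE 0.06.)

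Among the 11 SR proteins, Srsf11, Srsf5 and Srsf6 rose. Srsf11 (chr3:158010473-158036639, minus strand), an SR protein that takes part in the inclusion of short neuronal exons, had 12.3, 13.4 and 10.9 FPKM in the control pools and 20.1, 19.8 and 21.2 FPKM in the olanzapine pools. The olanzapine pools formed a narrow cluster above all control pools, and the log2 fold change was 0.72 (SE 0.09.) Srsf5 was the most abundant SR protein transcript, at 83.4, 76.4 and 83.6 FPKM in the control pools and 104.5, 110.0 and 107.9 FPKM in the olanzapine pools. Its log2 fold change was 0.38 (SE 0.07.) Srsf6 had 28.1, 28.4 and 27.5 FPKM in the control pools and 34.0, 36.8 and 39.3 FPKM in the olanzapine pools, a log2 fold change of 0.37.

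The other 8 SR proteins had log2 fold changes between -0.05 and 0.33. In 5 of them every olanzapine pool was above every control pool, against 13.3% of all genes. They were Srsf1, Srsf2, Srsf4, Srsf7 and Srsf9, at log2 fold changes of 0.16, 0.25, 0.14, 0.33 and 0.21. The gap between the groups was small for Srsf9 and Srsf4, at 4.1 and 32.6 normalized counts. Srsf3 (0.05), a shuttling SR protein of mRNA export, and Srsf10 (0.04), which acts as a splicing repressor when dephosphorylated, overlapped between the groups in normalized counts, although the FPKM of Srsf10 did not overlap. Srsf12 was the least abundant of the family, at 9.01, 6.71 and 7.27 FPKM in the control pools and 6.92, 7.77 and 7.84 FPKM in the olanzapine pools. The groups overlapped for Srsf12. In the reference transcripts, 20.7% of the 100-base stretches of Srsf3 and 17.9% of those of Srsf5 also occur in other genes, so reads of these 2 genes may be split or dropped. Exons of Srsf4 and Srsf2 overlap antisense genes over 43.0% and 25.3% of their bases.

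The Tra2 proteins are SR-like activators of exon inclusion with paralogous genes. Tra2a had 23.1, 26.8 and 25.4 FPKM in the control pools and 33.4, 35.01 and 39.0 FPKM in the olanzapine pools, a log2 fold change of 0.49 (SE 0.08.) Tra2b had 22.7, 22.9 and 23.8 FPKM in the control pools and 21.9, 23.8 and 25.6 FPKM in the olanzapine pools. The control levels of the pair were alike, and only the Tra2a pools separated by group, so that the ratio of Tra2a to Tra2b went from 1.08 ± 0.0752 (SD, n = 3 pools) to 1.51 ± 0.0309 (SD, n = 3). For Tra2b, 13.05% of the 100-base stretches also occur in other genes.

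Srrm1 and Srrm2 are large arginine- and serine-rich proteins of the splicing complex, Son and Pnisr are nuclear proteins with the same kind of tail, and Srrm4 drives the inclusion of neuronal microexons. Pnisr (chr4:21847583-21876475, plus strand) had 13.1, 13.1 and 12.0 FPKM in the control pools and 22.2, 20.3 and 23.0 FPKM in the olanzapine pools, a log2 fold change of 0.75 (SE 0.08.) Srrm1 (chr4:135320484-135353321, minus strand) had 18.9, 19.3 and 18.3 FPKM in the control pools and 26.9, 28.5 and 29.0 FPKM in the olanzapine pools, a log2 fold change of 0.56 (SE 0.06.) In both genes the gap between the groups was wider than the range within either group.

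The remaining genes of this subfamily differed from each other. Srrm2, the most abundant of the 5 in control tissue, had 34.8, 37.97 and 33.7 FPKM in the control pools and 48.3, 43.8 and 49.6 FPKM in the olanzapine pools. Its log2 fold change of 0.39 did not pass in the main test. Son had 29.1, 30.0 and 29.1 FPKM in the control pools and 29.5, 27.5 and 30.9 FPKM in the olanzapine pools, with a log2 fold change of -0.03 (SE 0.07.) Srrm4 was the least abundant, at 4.07, 4.04 and 3.10 FPKM in the control pools and 5.03, 3.61 and 2.88 FPKM in the olanzapine pools. Its highest value was in olanzapine pool 1.

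The RBM and LUC7-like proteins held the most calls, with 5 of 6 genes higher. LUC7-like proteins belong to the U1 snRNP, which recognizes 5′ splice sites. Luc7l3 (chr11:94287890-94321988, minus strand) had 20.9, 22.1 and 20.8 FPKM in the control pools and 32.1, 33.3 and 33.9 FPKM in the olanzapine pools, a log2 fold change of 0.62 (SE 0.06.) Luc7l2 was the least abundant, at 6.08, 6.02 and 6.32 FPKM in the control pools and 8.21, 8.07 and 8.76 FPKM in the olanzapine pools, with a log2 fold change of 0.42. Luc7l had 16.7, 16.4 and 16.4 FPKM in the control pools and 17.6, 17.7 and 19.5 FPKM in the olanzapine pools and did not pass. The ratio of Luc7l3 to Luc7l was 1.29 ± 0.0515 (SD, n = 3 pools) in control tissue and 1.82 ± 0.0765 (SD, n = 3) after olanzapine. Exons of Luc7l2 overlap an antisense gene over 18.9% of their bases.

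Among the RBM genes, Rbm39, a coactivator that resembles the 3′ splice site factor U2AF, had 18.5, 20.1 and 19.4 FPKM in the control pools and 24.2, 27.0 and 29.1 FPKM in the olanzapine pools, a log2 fold change of 0.45 (SE 0.08.) Rbm5, a regulator of exon choice in apoptosis genes, was the most abundant of the 6 in control tissue, at 26.2, 30.6 and 27.7 FPKM against 35.5, 38.3 and 39.3 FPKM in the olanzapine pools, a log2 fold change of 0.40 (SE 0.08.) Rbm25, which binds the U1 snRNP, had 14.0, 14.7 and 14.5 FPKM in the control pools and 19.3, 18.3 and 19.4 FPKM in the olanzapine pools, a log2 fold change of 0.38 (SE 0.07.) All 3 genes separated the groups without overlap, as did 13.3% of all genes with olanzapine higher.

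Of the 7 hnRNPs, which package nascent RNA and often repress exons, Hnrnpdl alone passed. Hnrnpdl had 24.8, 24.1 and 25.4 FPKM in the control pools and 32.9, 32.1 and 33.6 FPKM in the olanzapine pools, a log2 fold change of 0.39 (SE 0.07.) Hnrnpd, its paralogue and the least abundant hnRNP here, had 18.7, 18.7 and 18.6 FPKM in the control pools and 18.5, 19.1 and 21.0 FPKM in the olanzapine pools. The groups overlapped for Hnrnpd and not for Hnrnpdl.

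Hnrnpk was the most abundant hnRNP and second of the 47 genes, at 106.8, 108.1 and 110.8 FPKM in the control pools and 98.9, 103.9 and 111.2 FPKM in the olanzapine pools, with a log2 fold change of -0.08. For Hnrnpk, 25.3% of the 100-base stretches also occur in other genes, the highest share of the 47. Hnrnpu, Hnrnph1 and Hnrnpa2b1 had log2 fold changes of 0.24, 0.22 and 0.17 without overlap between the groups, and Hnrnpc had 0.01 with overlap.

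Ddx5 and Ddx17 are RNA helicases that act with splicing and transcription complexes. Ddx5 was the most abundant of all 47 genes, at 166.7, 184.8 and 179.9 FPKM in the control pools and 188.4, 192.5 and 203.6 FPKM in the olanzapine pools. Ddx17 had 50.5, 51.2 and 48.2 FPKM in the control pools and 57.2, 58.2 and 62.6 FPKM in the olanzapine pools. The log2 fold changes were 0.12 and 0.23, and neither gene passed.

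Sfpq and Nono form the dimers that build paraspeckles together with the long noncoding RNA Neat1. Sfpq had 16.4, 18.5 and 16.9 FPKM in the control pools and 24.2, 24.8 and 28.4 FPKM in the olanzapine pools, a log2 fold change of 0.56 (SE 0.09.) Nono had 56.6, 59.8 and 62.9 FPKM in the control pools and 53.7, 59.7 and 59.0 FPKM in the olanzapine pools, a log2 fold change of -0.08 (SE 0.07.) The ratio of Sfpq to Nono was 0.289, 0.310 and 0.268 in control tissue and 0.451, 0.416 and 0.481 after olanzapine, without overlap.

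The FET proteins Ewsr1 and Taf15 link transcription to splicing. Ewsr1 had 36.3, 37.9 and 37.8 FPKM in the control pools and 46.6, 46.3 and 49.5 FPKM in the olanzapine pools, a log2 fold change of 0.32 that lay just outside the threshold. Taf15 had 9.52, 10.7 and 11.3 FPKM in the control pools and 11.4, 12.2 and 12.9 FPKM in the olanzapine pools, a log2 fold change of 0.19.

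None of the 3 Rbfox genes passed or separated the groups in normalized counts. Rbfox1, the most abundant of the 3, had 21.6, 23.5 and 21.3 FPKM in the control pools and 24.9, 23.8 and 25.3 FPKM in the olanzapine pools, with a log2 fold change of 0.13 from the normalized counts. On the FPKM scale its olanzapine pools lay above its control pools, and on the scale of normalized counts they overlapped. Rbfox2 had 11.7 ± 0.958 FPKM (SD, n = 3 pools) in control tissue and 11.3 FPKM after olanzapine, with a log2 fold change of -0.07 (SE 0.10.) Rbfox3, which encodes the neuronal antigen NeuN, was the least abundant, at 5.81, 6.26 and 5.08 FPKM in the control pools and 8.33, 6.54 and 6.14 FPKM in the olanzapine pools. Its highest value, like that of Srrm4, was in olanzapine pool 1. In that pool the summed level of 6 markers of cortical glutamatergic neurons was 278.8 FPKM, against 7.08 to 28.5 FPKM in the other 5 pools, and the summed level of 7 pan-neuronal markers was 1949 FPKM, against 1426 to 1574 FPKM. The part of these cells in the values of Rbfox3 and Srrm4 was not tested.

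**Figure D3:**
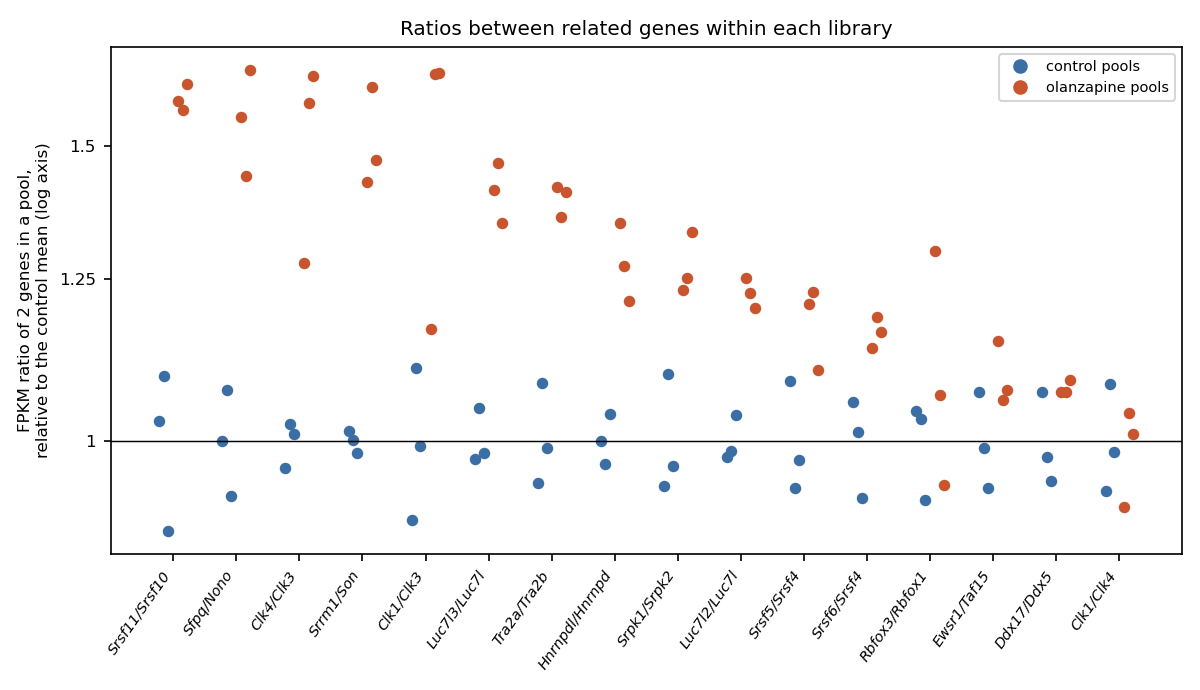
FPKM ratio of 2 related genes within each pool, divided by the mean ratio of the 3 control pools (y axis, log scale), for 16 pairs ordered by the change between the groups. For Srsf11/Srsf10 the mean ratio was 1.59 times the control mean in the olanzapine pools, for Sfpq/Nono 1.55 times and for Clk4/Clk3 1.51 times, while Clk1/Clk4, Ddx17/Ddx5, Ewsr1/Taf15 and Rbfox3/Rbfox1 overlapped between the groups.

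The 15 genes that rose were spread over the range of levels. Their control levels ran from 6.14 FPKM for Luc7l2 to 81.1 FPKM for Srsf5, with a median of 19.3 FPKM, and those of the other 32 genes from 1.30 FPKM for Clk2 to 177.1 FPKM for Ddx5, with a median of 22.6 FPKM. Across the 47 genes, which share the same 6 libraries, Spearman's rho between the log2 fold change and the control FPKM was -0.21, with the GC content of the longest transcript -0.05 and with the span of the gene -0.05. Over all 14760 tested protein-coding genes, rho with the GC content was 0.13. These are descriptions across genes and not independent observations.

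GENCODE M21 annotates transcripts with a retained intron for 37 of the 47 genes (78.7%), against 55.6% of all tested protein-coding genes. Clk1 has 7 such transcripts of 13, Clk4 has 7 of 14, Srsf11 has 11 of 19, Rbm5 has 13 of 24 and Srrm1 has 6 of 15. Hnrnpk, with a log2 fold change of -0.08, has 13 of 34. Of the 9 genes with 6 or more such transcripts, 7 rose, and their median log2 fold change was 0.45. Of the 12 genes with 3 to 5, 2 rose (median 0.28), of the 16 genes with 1 to 2, 4 rose (median 0.15), and of the 10 genes with 0, 2 rose, Pnisr and Sfpq (median 0.22). Neither the share that rose nor the median followed the number of such transcripts below 6. Across the 47 genes Spearman's rho between the number of such transcripts and the log2 fold change was 0.28. It was similar with the number of nonsense-mediated decay transcripts (0.26) and of all annotated transcripts (0.23). The median number of all transcripts was 13 in the genes that rose and 9.5 in the others. Among the other tested protein-coding genes, 5.24% of the 534 with 6 or more such transcripts were higher at an adjusted p under 0.05, with 2.21% of the 2358 with 3 to 5, 1.44% of the 5283 with 1 to 2 and 1.44% of the 6538 with 0. Gene-level counts do not separate spliced from unspliced reads, so the levels of the retained introns themselves were not measured.

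The other genes of the splicing pathway were taken from 7 lists with 114 genes in all, and every one could be tested. These lists, too, were chosen with results of the comparison known, so their values are given as a description, without p-values. At an adjusted p under 0.05 in edgeR, 7 were higher, against 1.83% of all genes tested, and 0 lower, against 0.493%. At an unadjusted p under 0.05, 18 were higher, against 9.19% of all genes, and 2 lower, against 8.4%. DESeq2 gave 12 higher, against 3.84% of all genes, and 2 lower, against 492 of all 17255 genes. Their median log2 fold change was 0.05. The 34 core snRNP proteins, which form the catalytic spliceosome and its U1 and U2 particles, had a median of 0.08 and 1 higher call in edgeR, against 2 higher and 1 lower with DESeq2, 2 higher with length offsets and 1 lower with limma without a filter. The gene called in edgeR, Snrnp70, a protein of the U1 snRNP, had 6450.6, 6575.8 and 6443.8 normalized counts in control tissue and 10338, 9411.9 and 10111 after olanzapine, a log2 fold change of 0.62 (SE 0.07). Prpf8, a protein at the catalytic centre of the spliceosome, had the lowest value of the list, a log2 fold change of -0.28 (SE 0.06), with all olanzapine pools below all control pools, and did not pass in edgeR.

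Both cyclins L, partners of kinases that act on splicing factors, rose. Ccnl2 had 1492, 1587 and 1619 normalized counts in control tissue and 2791, 2686 and 2758 after olanzapine, a log2 fold change of 0.81 (SE 0.07), and the value for Ccnl1 was 0.73 (SE 0.09). The other 4 genes of that list, Ccnk and the kinases Cdk11b, Cdk12 and Cdk13, did not pass. The counts of Ccnl2 did not overlap between the groups, and both calls held in each fit that left out 1 pool.

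Of 21 other SR-related proteins, 4 were higher and 0 lower in edgeR, against 1.83% and 0.493% of all genes. DESeq2 gave 6 higher, against 3.84% of all genes, and 1 lower, against 492 of all 17255 genes. The median log2 fold change of the 21 was 0.15. All olanzapine pools lay above all control pools in 11 of these genes, against 13.3% of all genes, and below them in 4, against 11% of all genes. The 4 were Scaf11 (-0.27), Scaf8 (-0.16), Thrap3 (-0.14) and Ppig (-0.09), of which none passed in edgeR. The log2 fold change was 0.55 for Srek1 (SE 0.07), 0.69 for Nktr (SE 0.09) and 0.51 for Srrm3, a paralogue of Srrm4 in microexon splicing (SE 0.09). The fourth, Pnn, was named after its values were seen and had 0.43 (SE 0.08). Without control pool 1 none of these 4 passed, and between 1 and 3 genes of the list passed in the fits without another pool.

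Of 20 other hnRNP, PTB and poly(C)-binding proteins, 0 passed in edgeR. At an unadjusted p under 0.05, 2 were higher, against 9.19% of all genes, and with DESeq2 1 was higher, against 3.84%. Their log2 fold changes ran from -0.14 to 0.24. Of 18 neuronal and tissue-specific splicing regulators, such as the Nova, Elavl, Celf and Mbnl families, 0 passed in edgeR. At an unadjusted p under 0.05, 1 was higher, against 9.19% of all genes. With DESeq2 and with length offsets 1 was higher, against 3.84% and 2.18% of all genes. The median of this list was -0.03. None of the 10 nonsense-mediated decay factors or of the 5 exon junction complex proteins passed in edgeR, at an unadjusted p under 0.05 or with DESeq2, and the median was 0.04 in both lists.

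**Figure D4:**
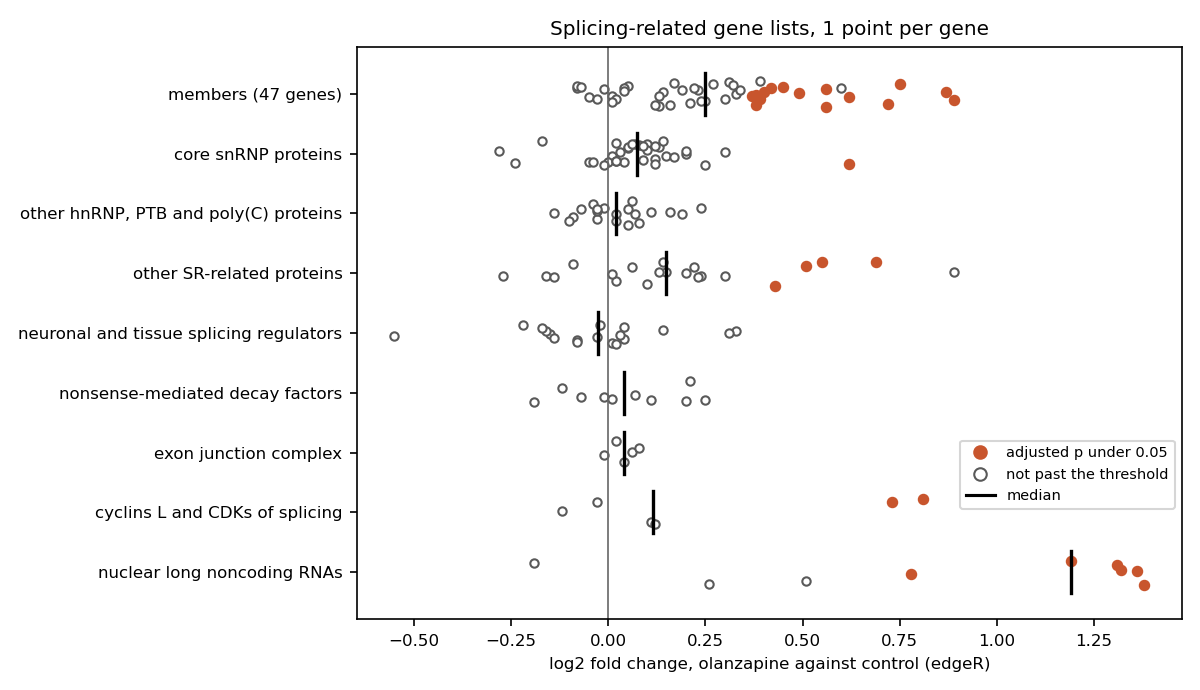
Log2 fold change between the olanzapine and control groups (x axis, edgeR) of each gene in the 47-gene list and in 8 other lists, with black lines at the medians. Filled points passed an adjusted p of 0.05. The medians were 0.25 for the 47 genes, between -0.03 and 0.15 for the 7 protein lists and 1.19 for the nuclear long noncoding RNAs.

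Of 9 nuclear long noncoding RNAs, 6 were higher and 0 lower at an adjusted p under 0.05 in edgeR, against 1.83% and 0.493% of all genes. With the 2 more at an unadjusted p under 0.05, 8 were higher, against 9.19% of all genes. DESeq2 gave 8 higher, against 3.84% of all genes. Their summed level was 388.1 to 457.8 FPKM in the control pools and 814.8, 730.6 and 819.5 FPKM in olanzapine pools 1 to 3. Malat1, an RNA of nuclear speckles where SR proteins are stored, had 3567, 4352 and 3799 normalized counts in control tissue and 10788, 8245 and 10226 after olanzapine, a log2 fold change of 1.32 (SE 0.12). Snhg11 had a value of 1.36 (SE 0.13) and Meg3 of 1.31 (SE 0.14). Neat1, the RNA of paraspeckles, had a log2 fold change of 0.51 and did not pass. Rian, with 0.26, and Peg13, with -0.19 and overlapping groups, did not pass either. The count of 6 fell to 3 with limma on log2(FPKM + 1) without a filter and without olanzapine pool 3, and to 4 with the replicate block, without olanzapine pool 2 and without any 1 of the control pools.

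The median deviation of the 47 genes from their control mean, in log2 normalized counts, was 0.290, 0.193 and 0.309 in olanzapine pools 1 to 3 and between -0.010 and 0.028 in the control pools. The summed level of the 47 genes was 1622.7, 1688.5 and 1776.3 FPKM in the same pools, so the lowest olanzapine pool was pool 2 by the median and pool 1 by the sum. Olanzapine pool 3 held the highest value of its group in 36 of the 47 genes. The summed level of 8 hepatocyte markers also moved with the groups, from 7.31 to 12.6 FPKM in the control pools and from 125.5 to 164.5 FPKM in the olanzapine pools, and all 8 were higher. The part of the noncoding RNAs, of RNA quality and of liver RNA in the values of the 47 genes was not tested. The summed level of 8 choroid plexus markers ran from 45.1 to 5359 FPKM within the control group and from 29.0 to 3449 FPKM within the olanzapine group.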

How the data were processed

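Total RNA from LS tissue, pooled from 3 mice per library, was made into libraries with a VAHTS Universal V6 kit and sequenced as paired-end reads. The authors trimmed reads with fastp, aligned them to mm10 with HISAT2 and deposited HTSeq raw counts per gene. They also deposited FPKM for the same genes. Tool versions, the strand setting and the treatment of multi-mapping reads are not given in the sources used here. All sample columns were used.

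Samples were grouped by their titles. The 47 genes and the other lists were chosen with earlier results of these data known. Counts were filtered with filterByExpr (minimum count 10, minimum total 15), normalized with TMM and tested between the groups in R 4.3.3 with the quasi-likelihood F test of edgeR 4.0.16, group being the only term, and p-values were adjusted by the Benjamini-Hochberg method over 17255 genes. The study itself used DESeq2. A standard error is the log2 fold change divided by the square root of F. Normalized counts are TMM-scaled counts at the mean effective library size. Levels between genes were compared in FPKM only. The fits were tested on simulated data. At a 1.5-fold rise edgeR recovered 21 of 50 changed genes and DESeq2 31 of 50. At a 2-fold rise they recovered 39 and 42 of 50. In the same data edgeR called 12 unchanged genes and DESeq2 called 50. With 3 pools per group an exact permutation test cannot go below 0.1. The genes named are the 47, values in every pool being given for those that passed and for the highest and lowest of each subfamily (and, outside that rule, for Clk3, Son and Luc7l), and up to 3 passing genes with the smallest p of each other list. Pnn, Prpf8, Scaf8, Scaf11, Thrap3, Ppig, Neat1, Rian, Peg13, Ccnk, Cdk11b, Cdk12 and Cdk13 fall outside that rule and were named after their values were seen. Gene positions and transcript types are from GENCODE M21 (GRCm38), overlaps count at least 100 shared exonic bases, and promoters are from RefSeq. Alternatives were DESeq2 1.42.0, RLE and upper-quartile factors, other filters, a replicate block, limma 3.58.1 on log2(FPKM + 1) and log2(FPKM + 0.1), length offsets and leaving out each pool. GC offsets were added after seeing the data.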

Additional observations from a re-analysis of the deposited data

How the results depend on the processing

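Leaving out 1 pool at a time, the number of the 47 genes called higher ranged from 6 to 17 (15 with all pools), while 0.706% to 1.76% of all genes were (1.83% with all pools), the 114 other splicing genes called higher from 3 to 6 (7 with all pools), and the genes with all olanzapine pools below the control pools from 0 to 3 (0 with all pools), while 14.2% to 18.1% of all genes did so (11% with all pools). DESeq2 called 12 of the 114 other splicing genes higher, against 3.84% of all genes, and 2 lower, against 492 of 17255 genes. Limma on log2(FPKM + 1) without a filter called 1 of the 114 lower, against 22 of 26020 genes. Length offsets moved the median over the 47 genes to 0.31 on the log2 scale. In the settings that kept all pools and had no block, the calls among the 47 genes ran from 11 to 20, and Clk4, Srsf11, Pnisr, Srrm1 and Luc7l3 passed in all 17 alternatives and Clk1 in 16. Each of the 15 genes kept its direction in all 17. The cause of these differences was not tested. The replicate numbers only name the pools: deviations of same-numbered pools correlated at -0.003, 0.062 and -0.255. With the replicate block 6 of the 47 genes were called, and 0.742% of all genes were higher. Over all genes, edgeR called 316 higher and 85 lower (78.8% higher), DESeq2 662 and 492 (57.4% higher) and edgeR with the block 128 and 12 (91.4% higher), and with limma between 88.1% and 90.8% of the calls were higher. With 3 pools per group, a gene that did not pass is not shown to be unchanged.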
